A study of Homo sapiens with 5 samples.

Results

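Windows of the genome in which DNA methylation was lower after 5-aza-dc than in every other library were taken from a reduced representation bisulfite sequencing (RRBS) data set of human iPSCs. The members were chosen by their own measured values. A window of 1000 bases had to have a deposited coverage of at least 100 in all 5 libraries. In all libraries but the vehicle control this coverage is scaled upward, so it can stand for fewer than 100 cytosine calls. The β-value after 5-aza-dc had to lie at least 0.10 below the lowest β-value of the other 4. The β-value is the methylated share of the CpG calls in a window and is given below in percent, so that the gap is at least 10 percentage points. Of 288391 windows in the deposited table, 239813 had the coverage, and 2297 of these were members. The gap, the low level after 5-aza-dc and every other value of the same contrast are therefore the selection itself and are given as a description, with no test.

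The cells were the iPSC line 201B7, labelled wild type and grown without feeder cells and exposed for 48 h to a chemical or to 0.1% DMSO, the vehicle control. For its methylation array the paper names iPSCs with an added fluorescent methyl-CpG-binding reporter (mCherry-MBD-nls). Its RRBS methods name only cells, so whether these cells carried the reporter cannot be told. Etoposide was given at 1 nM, both propyl gallate and theophylline at 1 µM, and 5-aza-dc at 10 nM. Each condition was represented by 1 library from this 1 line, so there is no replicate error behind any value, and an effect of a chemical cannot be told apart from a difference between dishes or library preparations. The only background the design gives is the same count made with each of the other libraries in the place of 5-aza-dc. Coordinates are on the human build hg38.

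In mammalian cells, methyl groups sit mostly on cytosines of CpG pairs, and the maintenance enzyme DNMT1 copies them onto the new strand after DNA replication. The analogue 5-aza-dc (5-aza-2′-deoxycytidine, decitabine) is built into replicating DNA and traps DNA methyltransferases there, so that methylation is diluted as cells divide. Etoposide is a topoisomerase II poison, propyl gallate a phenolic antioxidant and theophylline a phosphodiesterase inhibitor and adenosine receptor antagonist. Most of the genome is highly methylated in pluripotent cells, whereas CpG islands, the CpG-dense stretches at many gene starts, are mostly free of methylation. In RRBS, DNA is cut at CCGG sites, bisulfite turns cytosines without a methyl group into uracil, and sequencing of the fragment ends gives a sample of the genome that is rich in CpG.

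Of the members, 47 windows held the whole promoter stretch of at least 1 RefSeq gene (250 bases before to 50 after the start), and in 33 of these the gene was protein-coding. The 6 of these with the largest gap are shown because they tie the lowered windows to named gene starts and let the CpG density be read. Each line gives the 150 bases before the start that hold the most CpG pairs, 5′ to 3′ on the strand of the gene, with the CpG pairs in capitals, from RefSeq on GRCh38.p14. RRBS calls come from fragment ends anywhere in the window and not from each of these CpG pairs.
DMRT2, chr9:1050145-1050294, plus strand: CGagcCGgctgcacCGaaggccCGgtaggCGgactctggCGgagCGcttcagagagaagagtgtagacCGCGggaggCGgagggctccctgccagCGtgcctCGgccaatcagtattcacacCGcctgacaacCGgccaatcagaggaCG
PM20D1, chr1:205850217-205850366, minus strand: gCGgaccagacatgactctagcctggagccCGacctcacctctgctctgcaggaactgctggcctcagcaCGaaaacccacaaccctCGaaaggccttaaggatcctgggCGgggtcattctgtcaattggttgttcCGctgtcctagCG
NMI, chr2:151289704-151289853, minus strand: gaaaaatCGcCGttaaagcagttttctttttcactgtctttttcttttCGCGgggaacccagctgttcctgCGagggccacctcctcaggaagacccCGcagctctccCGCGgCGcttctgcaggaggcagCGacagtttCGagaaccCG
EIF4E, chr4:98929137-98929286, minus strand: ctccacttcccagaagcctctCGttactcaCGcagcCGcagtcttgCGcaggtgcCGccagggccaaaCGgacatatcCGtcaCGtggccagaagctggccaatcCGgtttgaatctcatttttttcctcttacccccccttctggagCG
NANS, chr9:98056551-98056700, plus strand: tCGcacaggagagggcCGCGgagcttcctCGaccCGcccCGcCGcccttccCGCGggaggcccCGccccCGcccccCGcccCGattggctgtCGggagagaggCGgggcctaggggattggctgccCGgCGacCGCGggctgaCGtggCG
PAK4, chr19:39167096-39167245, plus strand: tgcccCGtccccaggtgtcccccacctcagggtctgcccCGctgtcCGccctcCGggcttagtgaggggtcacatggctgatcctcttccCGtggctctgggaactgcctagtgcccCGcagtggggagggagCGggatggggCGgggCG

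The 6 promoters belonged to genes of unrelated roles. DMRT2 encodes a transcription factor with a DM domain, and its window (coverage of at least 2778 in every library) had β-values of 42.6% in the vehicle control, 46.5% with etoposide, 43.6% with propyl gallate, 45.9% with theophylline and 25.3% after 5-aza-dc. The window at PM20D1, which encodes a secreted enzyme that makes N-acyl amino acids, had 84.4%, 88.8%, 88.7% and 93.0% in the same order of the other libraries and 67.4% after 5-aza-dc. The island window at NMI, the gene of an N-Myc and STAT interacting protein, had 40.7%, 29.9%, 32.9% and 31.7% against 13.7%.
These 3 windows thus began from different levels, and the library of the 5-aza-dc cells was lowest in each by the rule. The window at a start of EIF4E, the cap-binding protein of translation, had 51.7%, 48.1%, 55.7% and 49.1% against 32.4%. The window at NANS, the sialic acid synthase, had 32.6%, 33.4%, 34.4% and 33.7% against 18.1%, and the other 4 libraries were within a few points of one another there. The window at a start of PAK4, a p21-activated kinase, had 67.3%, 70.1%, 68.6% and 70.1% against 52.9%. The shown stretch held 15 CpG pairs for DMRT2, 7 for PM20D1, 12 for NMI, 10 for EIF4E, 21 for NANS and 9 for PAK4.

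Depth and labels were checked over the whole table. The 5 libraries held between 188847159 and 228919184 CpG calls in the windows, and the median eligible window had 503 to 622 calls per library. Calls are those before the authors' scaling (factors of 1.09 to 1.21 in all libraries but the vehicle control), and a read or its PCR copies can give more than 1 call, so intervals below are 95% Wilson intervals that cover counting error only. The mean β-value over eligible windows was 77.1% after 5-aza-dc and 78.1% to 79.0% in the others. Methylation is the only readout of the cell type here: of 11 pluripotency genes, 5 had an eligible window at their start, with β-values of 0.165% to 1.47% at LIN28B and DPPA4, 10.3% to 16.0% at L1TD1, 37.2% to 60.9% at ZFP42 and 73.7% to 81.6% at DPPA2. The start of DPPA2 was therefore methylated in all 5 libraries, so these starts bear on the pluripotent label only in part. None of the 5 windows was a member.

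The count of windows was larger for 5-aza-dc than for any other library in its place. Of the eligible windows, 2297 (0.958%) were lower after 5-aza-dc alone, 365 (0.152%) in the vehicle control alone, 405 (0.169%) with etoposide alone, 303 (0.126%) with propyl gallate alone and 231 (0.0963%) with theophylline alone. The count for 5-aza-dc was 5.67 times the highest of the other 4, with an interval of 5.10 to 6.30 that covers the counting of windows only. In the upward direction the order was different. Windows higher in 1 library alone by the same margin numbered 82 (0.0342%) in the vehicle control, 195 (0.0813%) with etoposide, 132 (0.055%) with propyl gallate, 214 (0.0892%) with theophylline and 102 (0.0425%) after 5-aza-dc. With 5-aza-dc, windows lower than all others thus outnumbered windows higher than all others, 2297 against 102.

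The excess was present at every gap examined. At a gap of 5 points, 13933 windows were lower after 5-aza-dc alone and at most 3716 in any other library. At 15 points the counts were 439 and at most 60, at 20 points 76 and at most 16, at 25 points 21 and at most 3, and at 30 points 8 and at most 2. Large gaps were rare: the median gap of the members was 12.04 points, the middle 50% lay between 10.8 and 14.1, and the largest was 41.7.

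Most members were highly methylated, as were most eligible windows, and their level after 5-aza-dc was modestly below that in the other libraries. The median of the 5 libraries was 90% to 100% in 48.1% of the members and in 60.6% of eligible windows. The median β-value of the members was 89.7% in the vehicle control, 90.7% with etoposide, 90.3% with propyl gallate and 90.8% with theophylline, and 74.5% after 5-aza-dc. Over all eligible windows the medians were 90.8%, 91.5%, 91.5%, 92.0% and 89.7% in the same order. The vehicle control exceeded 5-aza-dc by a median of 14.2 points in the members and of 0.679 points in all eligible windows. The level after 5-aza-dc was a median of 82.7% of the median of the other 4, a share that the fixed gap largely sets at a high level. The highest level of a member after 5-aza-dc was 86.8%, where the rule allows at most 90%.

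The other 4 libraries differed among themselves about as much in the members as elsewhere. Their range had a median of 5.34 points in the members and of 4.54 points in eligible windows. The lowest of the 4 was the vehicle control in 32.4% of the members, etoposide in 22.5%, propyl gallate in 24.6% and theophylline in 20.5%, against 31.2%, 25.4%, 24.3% and 19.1% of eligible windows. No single other library therefore lay next to 5-aza-dc more than a few percent more often in the members than in the table.

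The values at the limit of the rule were those of ordinary highly methylated windows. Just inside, the window assigned to RAB40C had 95.7%, 91.1%, 91.9% and 96.5% in the vehicle control, etoposide, propyl gallate and theophylline libraries and 81.1% after 5-aza-dc. The windows assigned to MIR4274 (79.2% after 5-aza-dc, 89.2% in the lowest other library) and LINC00636 (68.2% and 78.2%) had the same gap of 10 points to the precision shown. Just outside it, the windows assigned to CFHR2 (77.8% and 87.8%), MIR4279 (84.3% and 94.3%) and MOGS (84.0% and 94.0%) had gaps that round to 10.0 points.

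The 10 members with the largest gap were not confined to one chromosome or context. The largest, 41.7 points, was an intergenic window at chrX:131251001-131252000 assigned to IGSF1, an X-linked gene of a membrane glycoprotein, at 326899 bases in the deposited annotation. It had β-values of 65.6% in the vehicle control, 61.0% with etoposide, 63.3% with propyl gallate, 72.7% with theophylline and 19.4% (interval 15.8% to 23.6%, 392 calls) after 5-aza-dc. The next, at chr20:4148001-4149000, was a CpG island over an exon boundary of SMOX, the spermine oxidase of polyamine breakdown, with 58.3%, 67.3%, 66.9% and 74.4% against 19.01% (15.5% to 23.1%, 400 calls).
In both windows the level after 5-aza-dc was less than 40% of that of any other library, and the intervals did not overlap. An island on chromosome 5 without a gene symbol (chr5:5886001-5887000) had 37.7%, 76.7%, 61.0% and 70.2%, and 0 of 84 calls were methylated after 5-aza-dc, which allows a share of up to 3.57% by the limit of 3 counts (4.37% by the Wilson interval). Its other 4 libraries spread widely, and it was among the shallowest members. An intron window of TENT5D, an X-linked gene of the TENT5 poly(A) polymerase family, had 77.1%, 85.7%, 79.9% and 87.8% against 39.5% (33.8% to 45.7%).

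The next 3 windows lay in introns. The window in ADGRE4P, a pseudogene of an adhesion receptor, had 86.9%, 82.6%, 83.3% and 86.1% against 46.8%. The window in TMEM98, a transmembrane protein gene, had 95.8%, 91.0%, 94.96% and 94.1% against 55.2%. The window in ZMIZ1, a transcriptional co-activator, had 60.0%, 59.4%, 58.7% and 63.9% against 24.1%.
In these 3 windows the other libraries lay within 6 points of one another. The window in SSUH2, over an intron and exon boundary, had 43.0%, 34.6%, 43.3% and 43.7%, and 1.20% (0.370% to 3.15%) after 5-aza-dc, so that almost no methylated call was left. The intron window in AK8, an adenylate kinase gene, had 53.0%, 56.2%, 62.6% and 47.8% against 18.3%. The last of the 10, a shore window at chr6:166343001-166344000, had 61.7%, 57.6%, 41.4% and 62.4% against 12.6%.

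**Figure D1:**
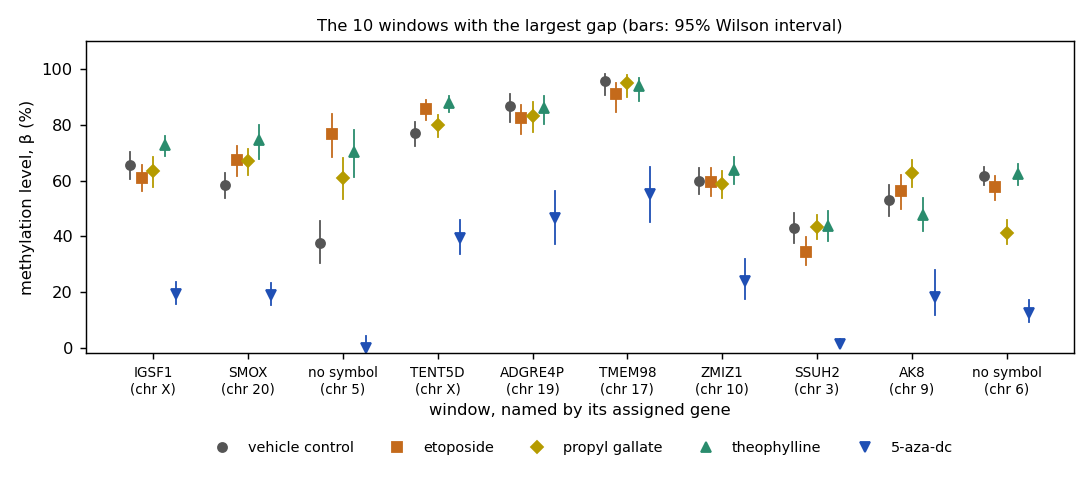
Methylation level (β, percent) in the 5 libraries for the 10 windows with the largest gap, ordered by the gap and named by the gene the table assigns, with 95% Wilson intervals of the calls as bars and 1 library per condition. The 5-aza-dc point is the lowest in each window, from 0% on chromosome 5 to 55.2% in TMEM98, as the rule requires.

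Windows in which another library stood alone reached gaps of similar size in single cases. The largest was 32.5 points for the vehicle control, in a window on chromosome 16 without a symbol (62.6% against at least 95.1%). It was 32.7 points for etoposide, in a window assigned to GPR132 (30.9% against at least 63.6%), 24.9 points for propyl gallate and 28.3 points for theophylline, in a window assigned to LINC00566 (56.8% against at least 85.1%). A gap of about 30 points in 1 window therefore occurred in libraries other than that of 5-aza-dc, and the difference lay in how many windows had one.

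The 5 deepest members had gaps of 10.3 to 13.7 points, on both sides of the median of 12.04 of all members, measured more precisely. The deepest, with a coverage of at least 7485, was an island window at the promoter of CHAD, the cartilage matrix protein chondroadherin, inside ACSF2 (chr17:50468001-50469000). It had 63.8%, 60.3%, 61.1% and 59.7% against 45.9% (44.8% to 47.1%). An island window on chromosome 17 within TMEM132E had 66.3%, 66.7%, 73.2% and 69.5% against 56.0%.
The 5 deepest members all lay in CpG islands. The window at EEF1A1-AS1, an antisense RNA of the EEF1A1 locus, had 45.2%, 51.0%, 52.7% and 50.9% against 33.1%. The window assigned to HOOK2, which lies within MAST1, a microtubule-associated kinase gene, had 79.0%, 79.9%, 78.4% and 86.1% against 67.6%. The window assigned to SMIM4 and lying in NT5DC2 had 56.9%, 59.8%, 54.9% and 59.6% against 44.5%.

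The share of windows that were members depended on the methylation level, taken as the median of the 5 libraries. No window of 26201 with a level under 10% was a member, since a member needs at least 10% in the other 4 libraries. The share was 0.689% at 10% to 30%, 3.14% at 30% to 50%, 4.14% at 50% to 70%, 2.27% at 70% to 80%, 1.34% at 80% to 90% and 0.760% at 90% to 100%. Windows of intermediate level were thus members most often, but the class at 90% to 100% was so large that it held 1105 members, or 48.1%. The other libraries had the same peak at 50% to 70%, at 0.234% to 0.684% of windows, so the peak itself was common to all 5 libraries.

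The size of the gap hardly varied with the level. The median gap was 12.03 points in the members at 10% to 30%, 12.4 points at 50% to 70% and 11.9 points at 90% to 100%. Relative to the other libraries the remaining methylation therefore rose with the level, from a median of 35.6% in the 35 members at 10% to 30%, to 61.9% at 30% to 50%, 73.1% at 50% to 70% and 84.7% at 90% to 100%. A fixed gap fixes most of this order.

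**Figure D2:**
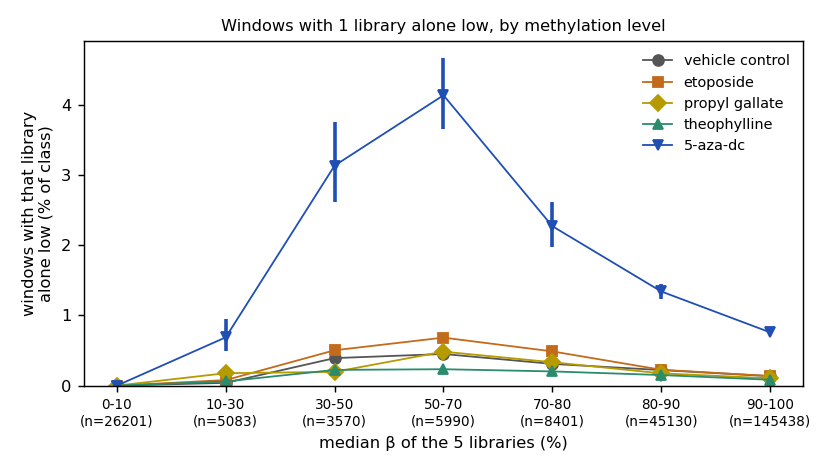
Percent of eligible windows in which 1 library alone was low by at least 10 points, by the median β-value of the 5 libraries (percent), with 1 line per library, the number of windows in brackets and the 95% Wilson interval for 5-aza-dc as bars. The 5-aza-dc line peaks at 4.14% in the class of 50% to 70%, where no other library exceeds 0.684%.

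The share of members also fell with depth, while the excess over the other libraries grew. Where the lowest deposited coverage of the 5 libraries was 100 to under 200, 966 windows (2.60%) were members, 3.94 times the highest other count. It was 955 windows (1.15%, 7.13 times) at 200 to under 500, 272 windows (0.413%, 12.4 times) at 500 to under 1000, and 104 windows (0.194%, 20.8 times) at 1000 and over, where no other library had more than 5. The median lowest coverage was 230 in the members and 497 in eligible windows. Of the members, 1873 (81.5%) had a 5-aza-dc interval that did not overlap that of any other library, against 70.1% to 75.3% of the windows in which another library was alone low. Those windows were shallower, with a median lowest coverage of 166 to 173, and intervals are wider at lower depth. The part of depth in this difference was not tested.

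**Figure D3:**
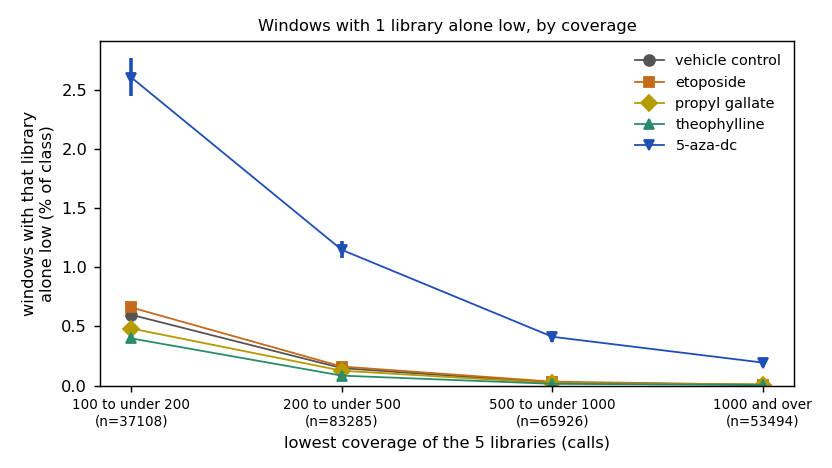
Percent of eligible windows in which 1 library alone was low by at least 10 points, by the lowest deposited coverage of the 5 libraries. There is 1 line per library, with the number of windows in brackets and the 95% Wilson interval for 5-aza-dc as bars. The axis names the coverage as calls, but it is scaled in all libraries except the vehicle control. All lines fall with coverage, and the 5-aza-dc line stays above the others, from 2.60% at 100 to under 200 to 0.194% at 1000 and over.

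The 5-aza-dc library also had fewer calls in the members. Its median was 227 calls per member, against 274 to 319 in the others. The share of its calls that fell in a member was a median of 0.858 of the mean share of the others, against 0.964 in eligible windows. In 586 members (25.5%) that share lay within 10% of the others, against 38.3% of eligible windows. Among windows with such equal shares, 5-aza-dc alone was low in 5.01 times as many windows as the highest other library. The part of the lower number of calls in the result was otherwise not tested.

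Over all coverages, members lay more often outside CpG islands than the windows of the table. Among deeper windows this order turned where the level was not held. Of the members, 1614 (70.3%, interval 68.4% to 72.1%) lay outside islands, shores and shelves, the zones flanking an island, against 63.1% of eligible windows. The share of windows that were members was 0.578% in islands, 1.05% in shores, 0.894% in shelves and 1.07% outside them. Since most island windows were unmethylated, the level was held in a second count: at 10% to 70%, 2.49% of island, 3.51% of shore, 2.66% of shelf and 2.62% of outside windows were members. At 70% to 100% the shares were 0.715%, 0.873%, 0.815% and 1.01%. Islands therefore came close to the other contexts at intermediate levels and had the lowest share of the 4 contexts in both classes.

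Where coverage was at least 500 in all libraries, 46.8% of 376 members and 51.3% of eligible windows lay outside islands, shores and shelves. The share of windows that were members was 0.341% in islands, 0.444% in shores, 0.198% in shelves and 0.287% outside. With the level held at 10% to 70%, 81 of 4536 island windows and 42 of 2238 outside windows were members, so the share was not larger in islands. Islands held 126 of these members (33.5%), close to the 30.9% of eligible windows of that depth. Of the 104 members with a coverage of at least 1000, 61 (58.7%) lay in islands, against 50.7% of eligible windows, and 44 of the 61 had an intermediate level. The larger share of islands among deep members was thus mostly that of deep windows in general.

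By gene section, promoter windows of the deposited annotation held 190 members (0.727%), intergenic windows 1166 (1.02%), introns 433 (0.985%) and windows over an intron and exon boundary 283 (0.910%). Windows overlapping a protein-coding RefSeq gene made up 51.2% of the members and 58.2% of eligible windows, and 0.843% of them were members. Windows overlapping no RefSeq gene made up 35.4% and 30.2%, and 1.12% of them were members. Windows within 1 Mb of the outermost window of a chromosome held members as often (4.35% of members, 4.32% of eligible windows) as their number.

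None of the 5 promoter members with the largest gap was assigned to a named protein-coding gene. An island window on chromosome 21 without a symbol had 84.4%, 86.7%, 85.5% and 92.4% against 61.7%. The window at PWRN1, a non-coding RNA of the Prader-Willi region (chr15:24101001-24102000), had 62.4%, 63.6%, 53.6% and 51.3% against 31.3% (28.6% to 34.2%). The window at the pseudogene DBF4P1 had 97.5%, 96.5%, 91.6% and 92.2% against 72.1%.
These were methylated starts rather than open ones. The window at the keratin pseudogene KRT17P7 had 87.8%, 88.9%, 97.5% and 95.7% against 68.5%. A window on chromosome 17 without a symbol (chr17:4787001-4788000) had 67.6%, 70.1%, 69.4% and 72.3% against 48.6%. Of the islands outside promoters, chr22:22255001-22256000 in the IGL locus had 85.4%, 87.3%, 90.4% and 87.7% against 63.8%, and chr6:3053001-3054000 had 50.9%, 32.7%, 23.6% and 41.2% against 2.24%.

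Promoter sequences in member windows were poorer in CpG than those of the table. Of 12973 RefSeq promoters that lie wholly in an eligible window, 55 lay in a member, in 47 windows. They held a median of 15 CpG pairs in 300 bases against 26, and a median GC content of 62.3% against 66.0%. The share in members was 1.68% for promoters with fewer than 5 CpG pairs, 1.12% for 5 to 9, 0.590% for 10 to 19 and 0.225% for 20 and over. The median level of these 4 classes fell in the same order, 89.1%, 79.3%, 1.95% and 0.944%, so CpG density and level cannot be told apart here.

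Within one level the difference in CpG density was smaller or turned. At 10% to 70%, promoters in members held a median of 17 CpG pairs against 21, and at 70% to 100% they held 11.5 against 9. The cut site of the RRBS enzyme, CCGG, was present in 83.6% of the promoters in members and 91.4% of all. Of the CpG pairs, 8.16% in members and 6.18% in all had A or T on both sides (ACGA, and also ACGT, and also TCGA, and also TCGT; both strands are covered, as the set is its own reverse complement). At 70% to 100% the latter shares were 7.88% and 10.9%, in the other order.

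The X chromosome held 107 members of 6657 eligible windows (1.61%, interval 1.33% to 1.94%), against 2185 on the autosomes (0.939%). The share on single autosomes ran from 0.687% on chromosome 4 to 1.20% on chromosome 10. The other libraries were alone low on X in 11 to 27 windows, so that the ratio of 5-aza-dc to the highest other was 3.96 on X and 5.81 on the autosomes. X windows were shallower, and within one coverage class the shares were closer: 3.10% against 2.58% at a coverage of 100 to under 200, 1.37% against 1.14% at 200 to under 500, and 0.436% (8 windows) against 0.313% at 500 and over.

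Few members had another member directly beside them. Of 1034 members with a measured window directly beside them, 38 (3.68%) had a member there, as 19 pairs. Of all eligible windows, 0.958% were members. A member can have a measured window on either side or on both, so these shares are not of the same kind. The counts in the other libraries were 0 of 152 for the vehicle control, 0 of 175 for etoposide, 6 of 136 for propyl gallate and 2 of 107 for theophylline. Propyl gallate thus had a like share, on far fewer windows.

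Of the 5 pairs described, that at SMOX had unlike gaps: beside the island, the second window had at least 95.1% in the other libraries and 83.5% after 5-aza-dc. In RAB11FIP4, a gene of a Rab11 effector, the first window had 63.2%, 67.5%, 66.1% and 70.9% against 47.0%, and the second had 57.9%, 57.3%, 55.7% and 58.7% against 36.3%. At SCUBE1-AS1, antisense to the secreted EGF-domain protein gene SCUBE1, the values were 49.4% to 55.1% against 33.3% in one window and 70.5% to 80.6% against 51.0% in the other.
In both of these pairs the gaps of the 2 windows were within 4 points of each other. In PLAA, the phospholipase A2 activating protein (assigned to IFT74), they were 78.7% to 91.1% against 62.5% and 83.5% to 91.5% against 64.4%. In ITGAE, the αE integrin of intraepithelial T cells, they were 85.1% to 89.96% against 66.4% and 67.6% to 76.9% against 51.0%.

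Windows beside a member that were not members themselves were also slightly lower after 5-aza-dc. In 1219 such windows, 5-aza-dc lay a median of -1.89 points from the median of the other 4 and below it in 72.4%, against -1.10 points and 66.8% in all eligible windows. At a level of 70% to 100% the medians were -2.16 and -1.40 points, and at 10% to 70% they were -4.35 (137 windows) and -2.72 points. Removing members removes the lowest neighbours, so these values are not an estimate of all neighbours. At 2 to 5 kb the medians lay between -1.13 and -1.50 points, close to that of the table. Members were chosen for a low value of their own, so these medians do not show how far the lowering reached. Beside windows in which propyl gallate was alone low, it lay below the median of the other 4 in 51.0%, against 44.7% of eligible windows. The shares were 42.7% against 37.3% for theophylline, 48.3% against 45.2% for etoposide and 53.2% against 53.7% for the vehicle control. A higher share beside such windows was thus not particular to 5-aza-dc.

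No gene collected many members. Of the genes the table assigns, 2047 had 1 member, 116 had 2 and 6 had 3, the latter with 27 to 56 eligible windows each. They were SMOX, AGAP3, an Arf GTPase-activating protein gene, SH3BP4, KCNN3, which encodes a calcium-activated potassium channel, RXRA, the retinoid X receptor α, and a gene without a symbol. The third SMOX window (chr20:4129001-4130000) had 86.2% to 95.3% against 70.1%. An island window of AGAP3, with a coverage of at least 1516, had 80.7%, 82.6%, 74.2% and 82.6% against 63.1% (60.4% to 65.7%). A window in an intron of KCNN3 had 84.9%, 88.8%, 86.1% and 91.6% against 71.3%, and one of SH3BP4 had 53.6%, 48.6%, 44.3% and 58.5% against 33.8%.

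Lists of genes with known methylation behaviour held between 0 and 17 members each, beside the 0.958% of all windows. Germline genes, whose promoters are methylated in somatic cells, had 3 of 240 windows, 1.25%. They were assigned to PIWIL3, a PIWI protein gene (64.7% to 74.0% against 49.3%), STK31, a testis kinase gene (71.4% to 77.3% against 60.3%), and ASZ1, a germ cell protein of the piRNA pathway (87.2% to 96.3% against 76.8%). That of STK31 was intergenic, at 150798 bases in the deposited annotation. The X-linked cancer-testis genes had 1 of 119 windows, an intron of GAGE10 (24.6% to 37.1% against 3.45%). None of these 4 windows was at the promoter of its gene in the deposited annotation. No other library was alone low in a window of either list.

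Imprinted genes, expressed from one parental copy, had 5 of 532 windows, assigned to BLCAP, DLK1, KCNQ1OT1 and TRAPPC9, against at most 1 in any other library. The deepest of the 3 with the largest gaps, assigned to KCNQ1OT1 and lying in KCNQ1 (coverage of at least 1602), had 58.9%, 61.2%, 58.9% and 60.8% against 46.6% (43.9% to 49.3%). The window assigned to BLCAP, intergenic and at 57931 bases, had 87.8% to 98.6% against 74.5%. Zinc finger genes of chromosome 19 had 17 of 1156 windows (1.47%), against at most 4 in any other library. Among them an island of ZNF628 with a coverage of at least 2484 had 66.6%, 61.2%, 61.3% and 58.4% against 42.0% (40.0% to 43.9%), and the window assigned to the pseudogene ZNF887P had 79.1% to 81.4% against 54.9%. Olfactory receptors had 8 of 768 windows (1.04%), with 90.7% to 99.1% against 68.9% in that assigned to OR7E116P. Propyl gallate was alone low in 3 olfactory receptor windows, the highest count of another library.

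Developmental genes were mostly without members, and their windows were mostly unmethylated. HOX genes had 0 of 145 windows at a median level of 6.68%, and lineage transcription factors 2 of 690 at 6.47%. These 2 were assigned to PAX2, a kidney and midbrain factor (42.1% to 43.9% against 31.4%), and FOXA1, an endoderm pioneer factor (87.5% to 98.6% against 77.2%). The first lay in an intron of PAX2. The second lay 27942 bases from FOXA1, within TTC6. Lists of high level were at 0 as well: 0 of 102 windows of clustered protocadherins, 0 of 213 of pluripotency genes, 0 of 194 of the enzymes and cofactors of DNA methylation and 0 of 228 of genes silenced in cancer. At the share of all windows these lists would hold about 1 or 2 members each, so their counts of 0 do not set them apart.
Loci known to vary after reprogramming had 2 of 231 windows, both assigned to TCERG1L (87.9% to 99.1% against 66.7%, and 74.5% to 93.1% against 57.7%). Both were intergenic, at 48280 and 223280 bases. In this list theophylline was alone low in 3 windows and propyl gallate in 1, so the count for 5-aza-dc was not the highest. Of the 9 genes that the study followed on its array, 1 of 58 windows was a member, in an intron of CREBBP, a histone acetyltransferase. It had 88.8%, 88.8%, 91.3% and 83.7% against 72.4%, at a coverage of 105.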

How the data were processed

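RRBS libraries of 201B7 iPSCs were made by the authors, 1 for each of 5 conditions. The submitters' processing notes name FastQC 0.11.7, Trim Galore 0.5.0, Bismark 0.20.0, SAMtools 1.9, methylKit 1.10.0 and hg38. The authors summed CpG calls over windows of 1000 bases and merged the libraries. The deposited calls of the vehicle control are counts. For the other 4 libraries the authors scaled the calls by a common factor per library and rounded them, so the deposited values are a score. The deposited β-value is a fraction, methylated over methylated and unmethylated calls. It is the same in the tables of single libraries and in the joint table, for each of the 288391 windows.

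Here, members were found on the deposited coverage (at least 100) and β-values (gap of at least 0.10). Factors were recovered from whole numbers missing among low coverages, with at least 99.9997% of coverages returned, and the calls divided by them served for Wilson intervals and depth. Finding members and factors was tested on simulated data. The simulated drops were larger than most gaps of the members and lay only in windows deeper than most members. That test therefore does not bear on members near the limits. Conditions were compared by description alone, without p-values, because each condition has 1 library and the members were chosen on this contrast. The members, gene lists and settings were chosen with earlier results of these data known. Named windows are the 10 with the largest gap, the 5 deepest, up to 5 island and 5 promoter windows, 5 pairs of neighbours, at most 5 of the genes with most members, 3 windows on each side of the limit, up to 3 per gene list, and the largest of each other library; RXRA, and DLK1 among the imprinted genes, are named besides. Genes are those the deposited table assigns. Of the members, 1617 have a symbol and 680 do not. The deposited annotation does not say how shores and shelves were bounded.

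Planned sequences of the members with the largest gap were not printed, because the genome at hand was GRCh37. RefSeq promoters (GRCh38.p14) were used instead, chosen after the values were seen. Alternatives were other coverage and gap limits, calls before scaling, autosomes only, intervals that do not overlap, equal shares of calls, a relative limit and leaving out each library. Python 3.11.15, numpy 2.4.6, pandas 2.3.3, scipy 1.17.1 and matplotlib 3.10.9 were used.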

Additional observations from a re-analysis of the deposited data

How the results depend on the processing

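The 5-aza-dc count was above that of every other library under each alternative tried. With coverage of at least 30, 200 and 500 it was 3954, 1331 and 376, or 3.97, 8.32 and 14.5 times the highest other count, and the cause was not tested. The share of members outside islands, shores and shelves was then 73.1%, 64.9% and 46.8% (51.3% of eligible windows at 500), and the median vehicle control β-value 90.5%, 89.1% and 78.4%. With a gap of at least 0.05, 0.15 and 0.20, counts were 13933, 439 and 76, ratios 3.75, 7.32 and 4.75, and vehicle control medians 91.2%, 87.9% and 85.7%, with 73.7% outside at 0.20. Requiring intervals that do not overlap gave a ratio of 6.60 and a median of 90.4%. Requiring shares of calls within 10% gave 586 windows, a ratio of 5.01, 66.2% outside and a median of 88.8%. A relative limit of at most 0.8 times the lowest other library gave 5429 windows and a ratio of only 1.77, with 3060 for the highest other library. It admits windows of very low β-value, and the cause of the lower ratio was not tested. Counts were within 1.5 times and the ratio within its interval with calls before scaling (2081 windows), autosomes only, the top 1% of coverage left out, and each other library left out in turn (2866 to 3264 windows, ratios 5.26 to 5.50). No paired analysis was possible because each condition has 1 sample. Depth limits single windows: at 100 calls an interval spans many points, and calls are not independent molecules. With 1 library per condition, a change due to 5-aza-dc cannot be told apart from one due to its dish or library.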
